A study of Mus musculus with 10 samples.

Results

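Interferon-stimulated genes are the transcripts that cells switch on when they sense interferon. A list of 41 mouse genes of this kind was chosen by name, and all 41 were present in the count table, which held 24452 genes with a symbol. All 41 also passed the filter on low counts that left 15543 genes for testing. The samples were biopsies of whole-thickness back skin, 1 sequencing library per mouse, from 5 wild-type (WT) and 5 Zfp36ΔARE mice on the C57BL/6 strain. Zfp36ΔARE mice carry a systemic knock-in that lacks an instability motif in the 3′-untranslated region (3′-UTR) of the endogenous *Zfp36* gene, which encodes tristetraprolin (TTP), a protein that binds AU-rich elements and promotes mRNA decay. Mice of both genotypes, 7 weeks old at the start, received 400 nmol of the carcinogen DMBA on shaved skin and then 10 nmol of the tumor promoter TPA 2 times per week for 20 weeks. The biopsies were taken from treated skin without tumors, which the paper describes as adjacent to papillomas. Untreated skin was not analysed here, so every level below is a level in treated skin. The paper reports papillomas in all control mice and a reduced tumor burden in Zfp36ΔARE mice. The part of tumor burden in the levels below was not tested. The comparison asks how the interferon program of this skin differed between mice with normal and with raised *Zfp36* expression.

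Type I interferons signal through the receptor chains IFNAR1 and IFNAR2 and the kinases JAK1 and TYK2, and a complex that includes STAT2 and IRF9 binds interferon-stimulated response elements (ISREs). Interferon gamma signals through IFNGR1 and IFNGR2 with JAK1 and JAK2, and acts on gamma-activated sites (GAS). The outputs overlap, but *Ifit*, *Oas* and *Mx* genes, whose products block viral RNA and viral replication, are usually read as type I style genes, while guanylate-binding proteins (*Gbp*), immunity-related GTPases (*Irgm1*, *Igtp*) and the inducible proteasome subunits *Psmb8* and *Psmb9* respond strongly to interferon gamma. In skin, keratinocytes, macrophages, dendritic cells and lymphocytes all respond to interferon.

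The promoters of these genes were searched for the letters through which both routes act, and the windows below are from some of the members with a match. RefSeq promoter sequences (assembly GRCm38.p6, the mm10 genome, from 250 bases before to 50 bases after each start) matched 32 of the 41 members. *Mx1*, *Mx2*, *Oas2*, *Dhx58*, *Zbp1*, *Usp18*, *Rtp4*, *Parp14* and *Iigp1* had no entry. The ISRE core GAAANNGAAA, searched on both strands, occurred in 18 of the 32 members (56.2%), against 3.99% of the 27025 genes with a promoter in the table. The palindromic GAS core TTCNNNGAA occurred in 10 of the 32 (31.2%), against 9.55% of the 27025 genes. Of the type I style genes with a promoter, 4 of 7 held the ISRE core and 2 of 7 the GAS core, and of the interferon gamma style genes 6 of 8 held the ISRE core and 4 of 8 the GAS core, so the letters did not separate the styles. A match describes the sequence and does not show binding. The windows lie upstream of the start and read 5′ to 3′ on the strand of the gene, with every base of an ISRE core on either strand or of a GAS core in capitals.
Isg15, chr4:156200855-156200916, minus strand: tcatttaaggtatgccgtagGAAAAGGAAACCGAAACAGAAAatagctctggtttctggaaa
Ifit1, chr19:34640765-34640833, plus strand: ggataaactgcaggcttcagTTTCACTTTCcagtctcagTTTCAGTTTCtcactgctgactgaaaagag
Ifit3, chr19:34583353-34583436, plus strand: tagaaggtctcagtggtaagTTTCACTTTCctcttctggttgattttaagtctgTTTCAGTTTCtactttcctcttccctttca
Oas1a, chr5:120907526-120907559, minus strand: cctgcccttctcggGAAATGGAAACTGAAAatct
Trim30a, chr7:104465200-104465249, minus strand: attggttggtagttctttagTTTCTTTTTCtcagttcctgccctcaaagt
Gbp7, chr3:142530210-142530312, plus strand: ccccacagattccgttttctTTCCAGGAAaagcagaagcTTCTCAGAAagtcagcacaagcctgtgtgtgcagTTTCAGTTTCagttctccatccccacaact
Igtp, chr11:58199491-58199551, plus strand: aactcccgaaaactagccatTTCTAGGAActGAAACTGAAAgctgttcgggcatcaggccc
Irf1, chr11:53769904-53769952, plus strand: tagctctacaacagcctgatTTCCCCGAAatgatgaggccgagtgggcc
*Isg15* and *Oas1a* had overlapping copies of the ISRE core, *Ifit1* and *Ifit3* each had 2 copies that read on the opposite strand, and *Trim30a* had 1. *Igtp* and *Gbp7* held both motifs, as did *Oas1a*, whose GAS core at base -98 from the start lies outside the window shown. *Irf1* held the GAS core only. Neither motif was found in the *Samd9l* or *Oasl1* promoters.

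Because TTP acts through AU-rich elements, the 3′-UTRs of the members were read as well, taking for each gene the longest annotated 3′-UTR of the GENCODE annotation. The pentamer ATTTA was present in 27 of 41 members (65.9%), against 68.8% of the 14397 tested genes with a 3′-UTR. The heptamer TATTTAT was present in 7 of 41 members (17.1%), namely *Ifit1*, *Mx1*, *Oas3*, *Ifih1*, *Eif2ak2*, *Usp18* and *Ifi44*, against 29.4% of tested genes. The nonamer TTATTTATT, the letters TTP is known to prefer, was in 0 of 41 members against 7.83% of tested genes. Of the 4 members that differed between genotypes, *Isg15*, *Samd9l* and *Ifit3* held no pentamer and *Trim30a* held 1. The heptamer sites of *Ifit1*, at base 565 of a 3′-UTR of 1152 bases, and of *Usp18*, at base 105 of 400, are shown in DNA letters with the heptamer in capitals. The absence of a motif says only that those letters are not in the annotated sequence.
Ifit1 3′-UTR site: tctttcaaTATTTATatgctaaa
Usp18 3′-UTR site: ttaagcccTATTTATaagcaaaa

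The libraries held between 19595024 and 36419553 counts. *Zfp36* was higher in every Zfp36ΔARE library (4196 to 6134 normalized counts) than in every WT library (1824 to 2496), a log2 fold change of 1.33 ± 0.12 (SE, adjusted p = 0.00195, edgeR). Normalized counts here are counts scaled by edgeR's trimmed mean of M-values (TMM) to a library of 26680948 counts. Hair shaft keratins were low in WT 1 and WT 3, with summed normalized counts of 12690 and 2255 for 9 markers against 56140 to 75030 in the other WT libraries and 114000 to 331000 in Zfp36ΔARE. Y-linked transcripts were counted in 4 libraries, all Zfp36ΔARE (replicates 2 to 5), whereas all WT libraries and Zfp36ΔARE 1 expressed *Xist*, so genotype and sex cannot be told apart except through 1 mouse. The labels do not give the sex of the 5 mice per genotype. In whole skin, fewer cells of a type and less RNA per cell cannot be told apart.

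Of the 41 members, 1 was higher (*Isg15*) and 3 were lower (*Trim30a*, *Samd9l*, *Ifit3*) in Zfp36ΔARE skin at an adjusted p below 0.05 (Benjamini-Hochberg over 15543 genes, edgeR's quasi-likelihood test). Across all tested genes, 34.3% passed, 15.3% higher and 19.1% lower, so the members' share of 9.76% was below the background. Requiring more than a 2-fold change left *Isg15* higher and *Trim30a* and *Ifit3* lower, where 1.67% of all genes were higher and 6.64% lower by this rule. Only *Trim30a* among the 41 had groups that did not overlap, which was the case for 23.1% of all genes. DESeq2 passed 8 members, adding *Usp18* (higher) and *Cmpk2*, *Ifit2* and *Oasl1* (lower), and 41.4% of all genes. The 37 members that edgeR did not pass had log2 fold changes between -1.12 and 0.92. The median over the 41 was -0.0032, and over all tested genes it was 0.0076.

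**Figure D1:**
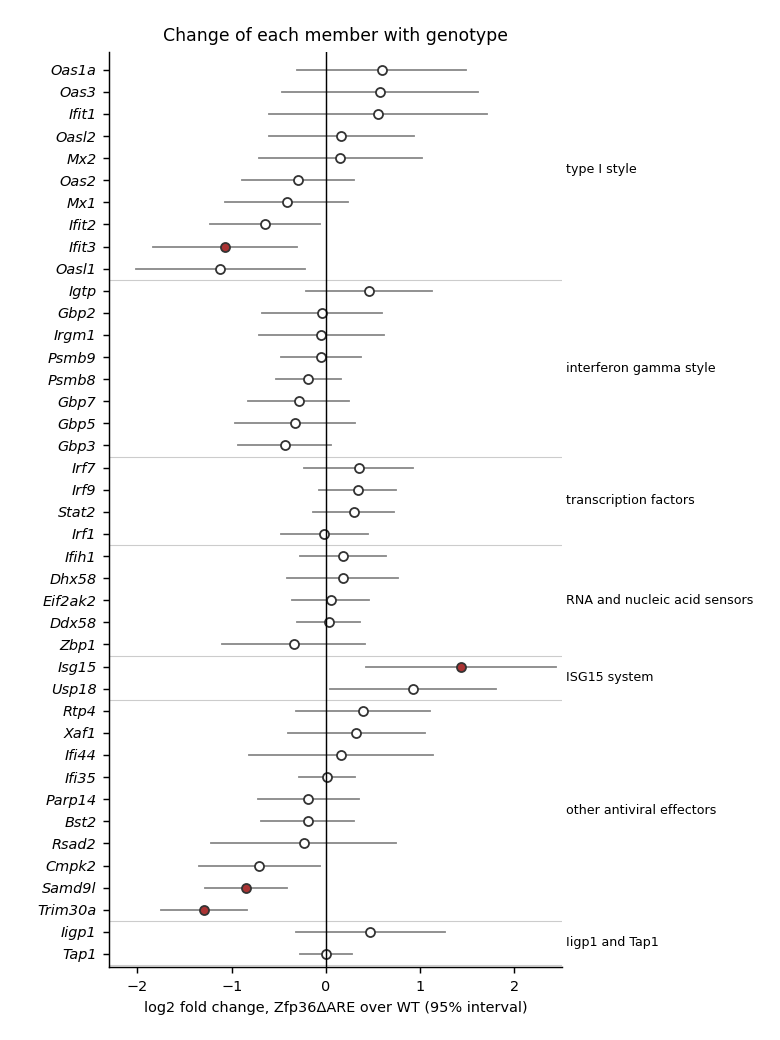
Log2 fold change of each of the 41 members, Zfp36ΔARE over WT, with the 95% interval from edgeR's quasi-likelihood fit (5 mice per genotype). Filled points passed an adjusted p of 0.05. *Isg15* lies to the right of 0, *Ifit3*, *Samd9l* and *Trim30a* lie to the left, and most of the other intervals cross 0.

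Of the interferon gamma style genes 0 of 8 passed by edgeR, and 0 of the 8 had an unadjusted p below 0.05, against 47.1% of all tested genes. DESeq2 also called 0 of them. *Gbp2*, a guanylate-binding GTPase, had 1422, 966, 1713, 759.9 and 1217 normalized counts in WT 1 to 5 and 1452, 1753, 782, 689 and 1199 in Zfp36ΔARE 1 to 5. *Psmb8*, an inducible catalytic subunit of the proteasome, had 1579, 1249, 1760, 1102 and 1405 in WT and 1461, 1356, 888, 1123 and 1400 in Zfp36ΔARE. In both genes the ranges of the groups overlapped over most of their width. *Irgm1*, a GTPase of the interferon-induced autophagy program, had 953, 705, 1084, 469 and 766 in WT and 908, 1078, 470.0, 423 and 955 in Zfp36ΔARE. *Psmb9*, another proteasome subunit, had 878, 642, 923, 581 and 847 in WT and 861, 899.9, 487, 619.5 and 859.8 in Zfp36ΔARE. In *Irgm1* and *Psmb9* the low libraries were WT 4 and Zfp36ΔARE 3 and 4. *Igtp* was the gamma style gene with the highest fold change, at 721, 435, 775, 392 and 571 in WT and 944, 1146, 518, 395 and 965 in Zfp36ΔARE, with 3 Zfp36ΔARE libraries above every WT library. Its log2 fold change of 0.46 ± 0.30 did not pass (SE, adjusted p = 0.25, edgeR). The 95% intervals for *Gbp2* (-0.68 to 0.59) and *Psmb8* (-0.53 to 0.16) leave room for changes within those bounds. The fold changes of *Gbp3*, *Gbp5* and *Gbp7* were -0.44, -0.33 and -0.29 on the log2 scale, and none of the 3 passed. Reads of near-identical *Gbp* copies could be split between genes, since the handling of reads with several matches is not given in the sources used here.

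Type I style genes varied more and went in both directions, with 5 log2 fold changes above 0 and 5 below. *Ifit1*, which binds viral RNA lacking a methylated cap, had 380.4, 282, 172, 158 and 184 normalized counts in WT 1 to 5 and 413, 711, 152, 68.1 and 381 in Zfp36ΔARE 1 to 5. *Ifit3*, its partner in the same complex and its neighbour on chromosome 19 (mm10, 34583531 to 34588731), had 583, 406, 240.4, 204 and 164 in WT and 154, 180.2, 134, 94.8 and 198 in Zfp36ΔARE. In Zfp36ΔARE 2 *Ifit1* was at its highest while *Ifit3* stayed below 4 of the 5 WT libraries. The log2 fold change of *Ifit1* was 0.56 ± 0.52 and did not pass (SE, adjusted p = 0.42, edgeR), and that of *Ifit3* was -1.07 ± 0.35 (SE, adjusted p = 0.0371, edgeR), a 2.10-fold lower level. *Ifit3* no longer passed when WT 1 or WT 2 or any one of Zfp36ΔARE 1 to 4 was left out, with log2 fold changes from -0.74 (without WT 1) to -1.14 (without Zfp36ΔARE 2) and adjusted p from 0.0604 to 0.085. It also missed with limma-voom (adjusted p = 0.0636). *Ifit2* had a negative estimate (-0.64 ± 0.26, SE, adjusted p = 0.0806, edgeR) but did not pass. *Ifit3b*, a near-identical copy of *Ifit3* that is not a member, was lower by the same test (-0.94 ± 0.30, SE, adjusted p = 0.0329, edgeR), and reads may be shared between the copies.

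The OAS enzymes sense double-stranded RNA and make oligoadenylates that activate RNase L. *Oas1a* had 286, 179, 128, 152 and 222 normalized counts in WT 1 to 5 and 348, 538, 129.6, 118 and 319 in Zfp36ΔARE 1 to 5. *Oasl1*, an inhibitor of *Irf7* translation, went the other way, with 140.0, 106, 39.1, 104 and 37.1 in WT and 26.2, 32.6, 30.8, 50.7 and 59.3 in Zfp36ΔARE. WT 3 and WT 5 lay within the Zfp36ΔARE range of *Oasl1* and the other WT libraries above it. Its log2 fold change was -1.12 ± 0.40 (SE, adjusted p = 0.0535, edgeR), and that of *Oas1a* was 0.59 ± 0.41 (SE, adjusted p = 0.269, edgeR). *Oasl2* had 1043, 728, 539, 520.2 and 590.2 in WT and 961, 1248, 395, 360.5 and 857 in Zfp36ΔARE, and *Oas2* had 647, 591, 466, 406 and 378 in WT and 495, 627, 240.5, 254 and 404 in Zfp36ΔARE. In both, Zfp36ΔARE 3 and 4 were the lowest of the 10 libraries. Neither *Oasl2* (0.16 ± 0.35) nor *Oas2* (-0.30 ± 0.27) passed on the log2 scale. *Oas3* and *Mx2* had positive and *Mx1* a negative log2 fold change (0.57, 0.15 and -0.42), and none passed. C57BL/6 mice carry a defective *Mx1* allele, so its level speaks to the amount of mRNA and not to a working protein.

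The ISG15 system held the one member that was higher. ISG15 is a ubiquitin-like protein that is attached to other proteins in response to interferon, and USP18 removes it and also dampens signalling at the type I receptor. *Isg15*, on chromosome 4 (mm10, 156199424 to 156200818), had 488, 287, 182, 268 and 497 normalized counts in WT 1 to 5 and 1083, 1739, 463, 309.8 and 1044 in Zfp36ΔARE 1 to 5. Zfp36ΔARE 1, 2 and 5 were above every WT library, and Zfp36ΔARE 3 and 4 were within the WT range. The log2 fold change was 1.43 ± 0.45 (SE, adjusted p = 0.0354, edgeR), a 2.70-fold higher level with a 95% interval of 0.42 to 2.44 on the log2 scale. The call depended on single libraries. Without any one of WT 1, WT 2, WT 3, WT 4, Zfp36ΔARE 1, Zfp36ΔARE 2 or Zfp36ΔARE 5, the adjusted p lay between 0.0504 and 0.0883, with log2 fold changes from 1.08 (without Zfp36ΔARE 2) to 1.59 (without WT 1). *Isg15* also missed with limma-voom (adjusted p = 0.0636) and with no filter on low counts (adjusted p = 0.0577, edgeR). *Usp18* had 216, 163, 129, 134 and 174 in WT and 426, 601, 153, 127 and 239 in Zfp36ΔARE. Its log2 fold change of 0.92 ± 0.40 did not pass (SE, adjusted p = 0.092, edgeR).

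The lower members outside the *Ifit* family were *Trim30a* and *Samd9l*. *Trim30a* encodes a tripartite-motif protein that restrains inflammatory signalling and lies on chromosome 7 (mm10, 104409025 to 104465193). It had 632, 554, 548, 362 and 306 normalized counts in WT 1 to 5 and 232, 173, 157, 202 and 215 in Zfp36ΔARE 1 to 5. Every Zfp36ΔARE library was below every WT library. The log2 fold change was -1.29 ± 0.20 (SE, adjusted p = 0.00505, edgeR), a 2.45-fold lower level. It passed with any 1 library left out, with log2 fold changes from -1.42 to -1.18, and with both WT 1 and WT 3 left out (-1.06 ± 0.20, SE, adjusted p = 0.0123, edgeR).

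*Samd9l*, an antiviral and growth-restraining factor on chromosome 6 (mm10, 3372257 to 3399572), had 788, 667, 875, 529 and 464 in WT and 479, 388, 293, 292 and 396 in Zfp36ΔARE. Zfp36ΔARE 1 reached slightly above WT 5, and the other 4 libraries were below all of WT. Its log2 fold change was -0.84 ± 0.20 (SE, adjusted p = 0.0125, edgeR), under a 2-fold change. It did not pass when WT 1 and WT 3 were both left out (-0.58 ± 0.18, SE, adjusted p = 0.0566, edgeR). The other antiviral effectors (*Rsad2*, *Cmpk2*, *Bst2*, *Rtp4*, *Xaf1*, *Ifi44*, *Ifi35* and *Parp14*) had log2 fold changes from -0.71 (*Cmpk2*) to 0.39 (*Rtp4*), and none passed.

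Macrophage markers moved with genotype, in the direction of *Trim30a*, *Samd9l* and *Ifit3*. For the marker counts below, 19.1% of all tested genes were lower and 15.3% higher at the same adjusted p. Groups did not overlap, in either direction, for 23.1% of all tested genes. Of 10 macrophage markers, 9 were lower and the tenth, *Mertk*, did not pass. Their summed level ranged from 16820 to 34580 normalized counts in WT and from 8721 to 13160 in Zfp36ΔARE, and none was at 0. Of 7 dendritic and Langerhans cell markers 5 were lower, with sums of 1433 to 3226 in WT and 839 to 1371 in Zfp36ΔARE. Of 9 T cell markers 0 passed, with sums of 816 to 1461 and 794 to 1167. Markers of several cell types outside the immune system fell in the same libraries. All 7 endothelial markers were lower, with sums of 5316 to 11670 in WT and 3143 to 4188 in Zfp36ΔARE. Also lower were 6 of 6 skeletal muscle, 3 of 5 adipocyte and 3 of 5 fibroblast markers. The fall was thus not limited to immune cells. Of 7 basal keratinocyte markers 2 were lower, and of 4 suprabasal keratinocyte markers 0 were lower and 1 was higher. All 9 hair shaft markers were higher without overlap, 3 of them past the adjusted p threshold. Of 3 plasmacytoid dendritic cell markers only *Cox6a2* was lower, and *Siglech* and *Ccr9* did not pass. *Cox6a2* had a mean of 1414 normalized counts over all libraries, against 30.5 for *Siglech* and 56.8 for *Ccr9*. Like the summed skeletal muscle markers, *Cox6a2* was highest in WT 3. Its lower level is therefore not read here as a fall of plasmacytoid dendritic cells. Natural killer cell markers were scarce (sums of 31.1 to 74.4 and 17.6 to 47.2, with *Klra8* at 0). The part of these cells in the levels of the members was not tested.

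**Figure D2:**
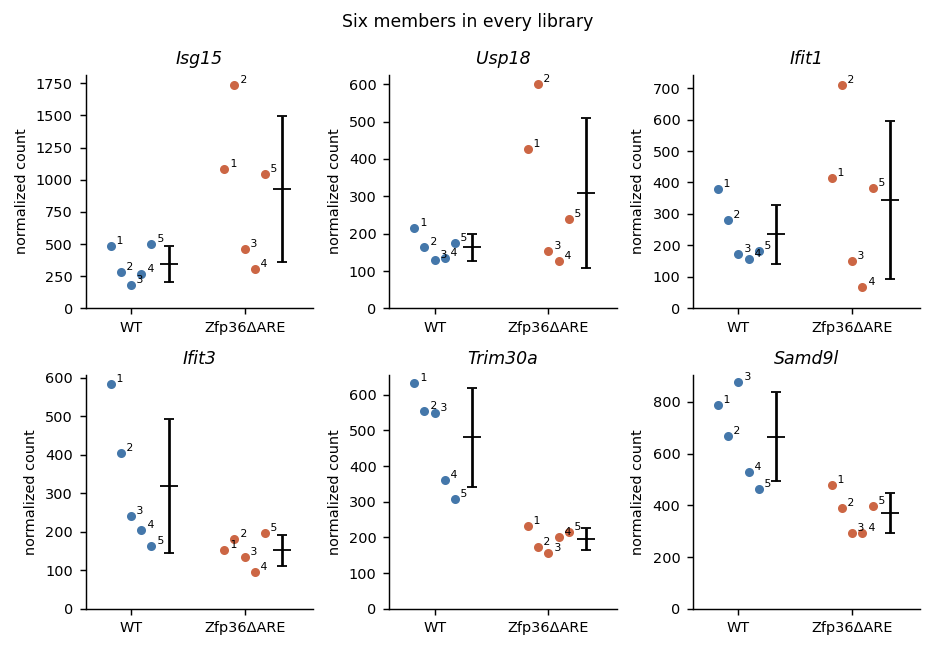
Normalized counts of *Isg15*, *Usp18*, *Ifit1*, *Ifit3*, *Trim30a* and *Samd9l* in each of the 10 libraries, with the replicate number beside each point and the mean ± SD of the 5 mice at the right. *Isg15* and *Usp18* were high in Zfp36ΔARE 1 and 2, whereas *Trim30a* was low in all 5 Zfp36ΔARE libraries.

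The transcription factors that relay the response did not pass in either direction. *Irf7*, the master amplifier of type I interferon, had 895, 719.7, 410.0, 705 and 679 normalized counts in WT 1 to 5 and 1097, 1272, 617, 530.1 and 811 in Zfp36ΔARE 1 to 5. *Irf9*, the DNA-binding part of the type I complex, had 1398, 1431, 1445, 1303 and 1667 in WT and 2135, 2414, 1258, 1252 and 2093 in Zfp36ΔARE. *Stat2* followed with 1745, 1362, 1595, 1227 and 1727 in WT and 2037, 2633, 1392, 1255 and 2062 in Zfp36ΔARE. In *Irf9* and *Stat2*, Zfp36ΔARE 1, 2 and 5 were above all WT libraries and Zfp36ΔARE 3 and 4 were not. *Irf1*, the early factor of the interferon gamma response, had 1011, 765, 1393, 652 and 998 in WT and 1107, 1175, 716, 750.4 and 1006 in Zfp36ΔARE. The log2 fold changes were 0.35 ± 0.26 for *Irf7*, 0.34 ± 0.18 for *Irf9*, 0.29 ± 0.19 for *Stat2* and -0.02 ± 0.21 for *Irf1* (SE). The 5 sensors of foreign nucleic acid (*Ifih1*, *Ddx58*, *Dhx58*, *Zbp1*, *Eif2ak2*) had log2 fold changes from -0.34 to 0.18, and none passed. *Iigp1* (0.47 ± 0.36) and *Tap1*, the peptide transporter of antigen presentation (-0.0032 ± 0.12), also did not pass.

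Members varied widely between mice of the same genotype. The SD of the log2 normalized count within a genotype had a median of 0.51 over the members and 0.20 over all tested genes, and it was above the all-gene median in 41 of 41 members. Within Zfp36ΔARE, replicate 2 was the highest library for 29 of the 41 members, against 17.9% of all tested genes. Replicate 4 was the lowest for 24 and replicate 3 for 16, against 22.1% and 19.1% of all genes. Within WT, replicate 1 was the highest for 27 of 41 (14.6% of all genes) and replicate 4 the lowest for 26 (16.7% of all genes). These are descriptions of mice, and no groups were formed from them.

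**Figure D3:**
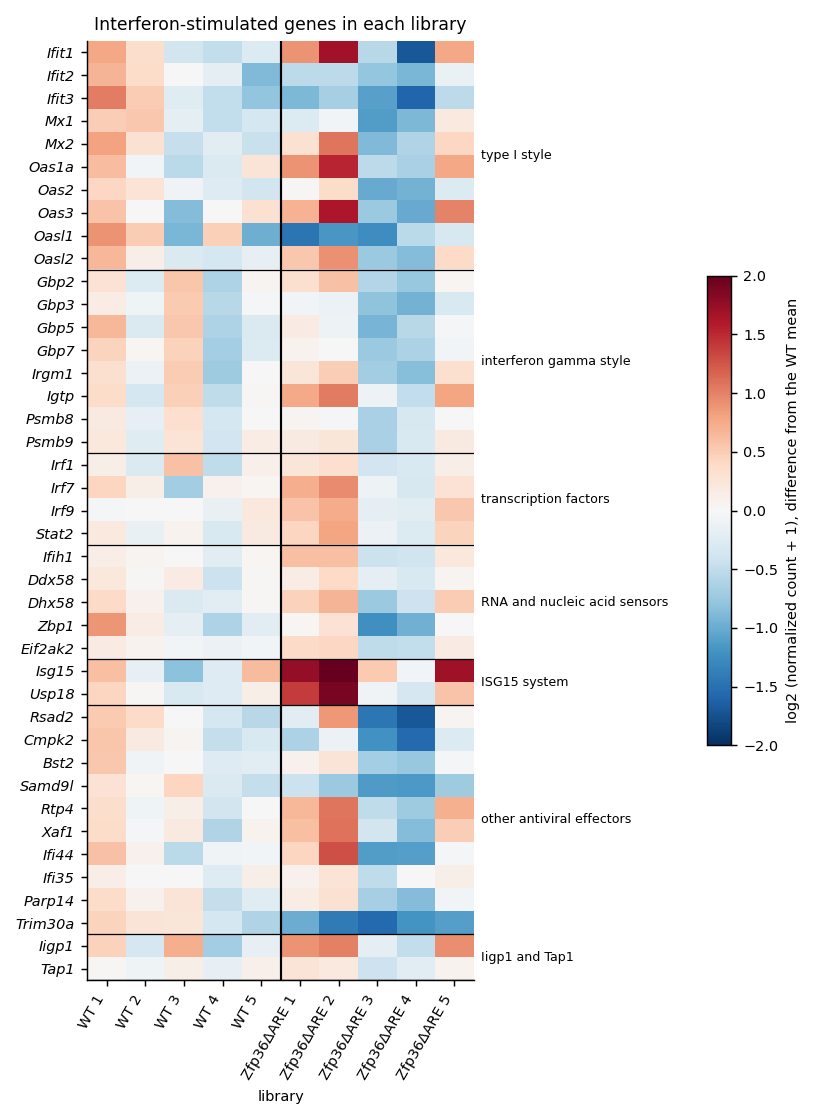
Each row is 1 of the 41 members and each column 1 of the 10 libraries, and color gives the log2 (normalized count + 1) minus the mean of the 5 WT libraries, with colors saturating at 2 on either side. In most rows Zfp36ΔARE 3 and 4 are low and Zfp36ΔARE 2 is high, whereas *Trim30a* and *Samd9l* are low across all Zfp36ΔARE libraries.

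The styles differed in which WT mouse was high. WT 1 was the highest WT library for 9 of 10 type I style genes, and WT 3 was the highest for 7 of 8 interferon gamma style genes but for 0 of 10 type I style genes, against 32.7% of all tested genes, the highest share of any WT library. WT 3 also had the highest summed muscle, adipocyte and endothelial markers of the 10 libraries and the lowest summed hair shaft markers. WT 4 was the lowest WT library for 8 of 8 interferon gamma style genes. The mean log2 (normalized count + 1) of the 10 type I style genes was 8.32, 7.93, 7.24, 7.41 and 7.26 in WT 1 to 5 and 7.65, 8.11, 6.76, 6.66 and 7.86 in Zfp36ΔARE 1 to 5. The mean of the 8 interferon gamma style genes was 9.60, 9.09, 9.73, 8.72 and 9.24 in WT and 9.49, 9.54, 8.63, 8.67 and 9.39 in Zfp36ΔARE. Both means overlapped between genotypes. The type I style minus the interferon gamma style mean was -1.65 ± 0.57 in WT and -1.74 ± 0.24 in Zfp36ΔARE (SD, n = 5), with the lowest value, -2.50, in WT 3. The median log2 fold change was -0.07 for the type I style genes and -0.12 for the interferon gamma style genes, against 0.0076 for all tested genes. These values of the lists are given without a test.

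**Figure D4:**
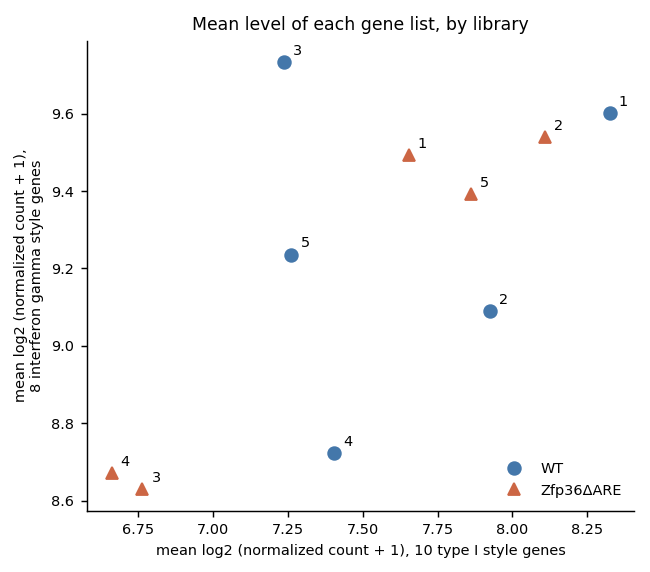
Mean log2 (normalized count + 1) of the 10 type I style genes (horizontal) against that of the 8 interferon gamma style genes (vertical), 1 point per library with its replicate number, circles for WT and triangles for Zfp36ΔARE. WT 3 sits high on the vertical axis only, and Zfp36ΔARE 3 and 4 are low on both.

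Ratios of pairs of members, which cancel what both share in a library, were read as well. The pairs were chosen after their values were seen and carry no test. The ratio of *Isg15* to *Ifit3* normalized counts was 0.84, 0.71, 0.76, 1.31 and 3.03 in WT and 7.05, 9.65, 3.46, 3.27 and 5.28 in Zfp36ΔARE. The lowest Zfp36ΔARE ratio was above the highest WT ratio. The ratio of *Ifit1* to *Ifit3* was 0.65, 0.70, 0.72, 0.78 and 1.12 in WT and 2.69, 3.94, 1.13, 0.72 and 1.93 in Zfp36ΔARE, so Zfp36ΔARE 4 lay within WT. The other 2 pairs read also overlapped: *Isg15* to *Trim30a* was 0.33 to 1.62 in WT and 1.54 to 10.1 in Zfp36ΔARE, and *Oas1a* to *Oasl1* was 1.47 to 5.97 in WT and 2.32 to 16.5 in Zfp36ΔARE. Per 1000 bases of gene length, the most abundant members were *Psmb8* (1089 normalized counts, mean of 10 libraries), *Tap1* (1017), *Psmb9* (943) and *Isg15* (841), and the least abundant *Ifi44* and *Mx2* (both 22.8).

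Interferon ligands were at or near 0 counts. Of 20 ligand genes, 12 had no count in any library, among them *Ifnb1*, and *Ifna2*, *Ifna11*, *Ifnk*, *Ifne*, *Ifnz*, *Ifnl2* and *Ifnl3* had 1 to 5 counts in all 10 libraries together. A count of 0 in a library allows up to 3 counts, for counting error only. *Ifng* was the exception, with raw counts of 8, 9, 5, 7 and 5 in WT 1 to 5 and 12, 9, 9, 11 and 12 in Zfp36ΔARE 1 to 5. Scaled, these were 5.16 to 7.37 in WT and 8.15 to 15.8 in Zfp36ΔARE, so the groups did not overlap. *Ifng* was under the filter on low counts, and without that filter its log2 fold change was 0.77 ± 0.31 (SE, adjusted p = 0.0888, edgeR). The difference in *Ifng* thus did not pass.

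Of 6 interferon receptor chains 4 were lower in Zfp36ΔARE skin, as was *Jak1*, the kinase that all interferon receptors use (19.1% of all tested genes were lower). *Ifnar2* had 754, 662, 858, 646 and 529 normalized counts in WT 1 to 5 and 456, 379, 445, 506 and 414 in Zfp36ΔARE 1 to 5, without overlap (log2 fold change -0.65 ± 0.13, SE, adjusted p = 0.00775, edgeR). *Ifngr1* had 2851, 2814, 3285, 2448 and 2152 in WT and 1779, 1774, 1709, 2280 and 1971 in Zfp36ΔARE (-0.51 ± 0.12, SE, adjusted p = 0.012, edgeR), where Zfp36ΔARE 4 was above WT 5. *Jak1* had 6974, 6593, 7651, 6110 and 5769 in WT and 4396, 3887, 3886, 5071 and 4954 in Zfp36ΔARE, without overlap (-0.58 ± 0.10, SE, adjusted p = 0.00659, edgeR). *Jak1* was thus lower by less than 2-fold in all 5 mice. *Ifnar1* (-0.18, adjusted p = 0.0391) and *Il10rb*, a chain of the interferon lambda receptor (-0.37, adjusted p = 0.0441), were lower by edgeR, and *Ifngr2*, *Ifnlr1*, *Jak2* and *Tyk2* did not pass.

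Upstream of interferon, 8 of 14 sensors and adaptors were lower and 0 were higher, where 19.1% of all tested genes were lower and 15.3% higher. *Tlr7* and *Tlr8*, endosomal receptors for single-stranded RNA, fell by 1.77 ± 0.30 and 1.86 ± 0.24 on the log2 scale (SE, adjusted p = 0.00556 and 0.00369, edgeR). *Tlr7* ranged from 186 to 439 normalized counts in WT and from 53.4 to 153 in Zfp36ΔARE. *Tlr9*, the receptor for unmethylated CpG DNA, fell by 1.12 ± 0.20, and *Ifi204*, a DNA sensor, by 1.15 ± 0.27 on the log2 scale (SE, adjusted p = 0.00659 and 0.0125, edgeR). *Mavs*, *Ikbke*, *Tlr3* and *Tmem173* (STING) fell by 0.24 to 0.50 on the log2 scale. The macrophage and dendritic cell markers given above were lower in the same libraries, and their part in these levels was not tested.

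Of the interferon regulatory factors given here that are not members, *Irf4*, *Irf5* and *Irf8* were lower, and *Irf2* and *Irf3* did not pass. *Irf4*, a factor of dendritic cells, macrophages and lymphocytes, fell by 1.33 ± 0.17, and *Irf8*, a factor of myeloid lineages, by 0.77 ± 0.17 on the log2 scale (SE, adjusted p = 0.00369 and 0.0105, edgeR). Of 9 negative regulators of the pathway, 4 were higher and 1 was lower (15.3% and 19.1% of all tested genes). *Ptpn2* and *Ptpn11*, tyrosine phosphatases of which the former dephosphorylates JAK and STAT proteins, were higher (0.25 ± 0.06 and 0.34 ± 0.09, SE, adjusted p = 0.0141 and 0.0162, edgeR). *Ptpn6*, a phosphatase of blood cells, was lower (-0.47 ± 0.11, SE, adjusted p = 0.0113, edgeR). *Pias1* and *Pias4*, inhibitors of STAT proteins, were the other higher genes (0.19 and 0.33, adjusted p = 0.0283 and 0.0211, edgeR). *Socs1* and *Socs3*, the feedback inhibitors induced by cytokines, did not pass.

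**Figure D5:**
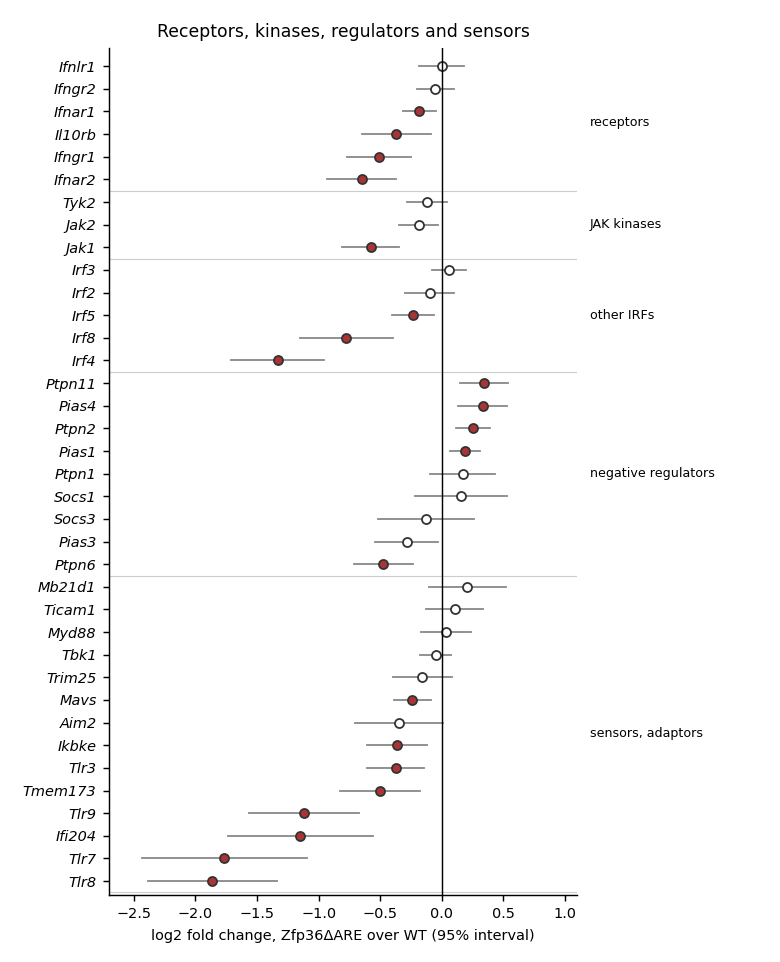
Log2 fold change, Zfp36ΔARE over WT, with the 95% interval for receptors, kinases, other interferon regulatory factors, negative regulators, and sensors and adaptors (5 mice per genotype, edgeR). Filled points passed an adjusted p of 0.05. *Tlr7*, *Tlr8*, *Tlr9*, *Ifi204* and *Irf4* lie farthest to the left, and *Ifnlr1* and *Myd88* are close to 0.

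A further 34 interferon-induced genes that are not members were read from a list, of which 33 were tested. Of these 9 were lower, 0 were higher, and the median log2 fold change was -0.17. The share that passed, 27.3%, was below the 34.3% of all tested genes, and 19.1% of all tested genes were lower. *Epsti1* fell by 1.08 ± 0.23 and *Ciita*, the master switch of class II antigen presentation, by 1.11 ± 0.21 on the log2 scale (SE, adjusted p = 0.00911 and 0.00741, edgeR). *Ifitm2*, which blocks viral entry, fell by 0.56 ± 0.10 (SE, adjusted p = 0.007, edgeR). *Cxcl9* and *Cxcl10*, chemokines that interferon gamma induces, had log2 fold changes of 0.48 ± 0.35 and 0.54 ± 0.35 (SE) and did not pass. *Oas1b* and *Oas1g*, close copies of *Oas1a*, had positive log2 fold changes of 0.58 and 0.83 and did not pass.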

How the data were processed

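RNA of whole-thickness back skin was sequenced as paired ends, 1 library per mouse (5 WT, 5 Zfp36ΔARE). According to the study's methods and the submitters' processing notes, the authors discarded reads averaging a quality score under 20 before STAR 2.5.2b alignment (mm10) and counted reads per gene with featureCounts (Subread 1.5.0-p1). They deposited raw counts per gene in 1 table, with gene length. Strand and multi-mapping settings are not given in the sources used here, so counts of near-identical copies (*Ifit3*, *Oas1*, *Gbp* and *Trim30* families) are uncertain. From 24454 rows, 2 without a symbol (7.38e-05% of counts) were left out.

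The members and lists were chosen with earlier results of these data known. The genes given per library are the 4 most abundant of each style, those past both thresholds, the 4 with the lowest p in each direction, *Irf1*, *Irf7*, *Irf9*, *Stat2* and *Isg15*. Of the pathway list they are the main receptors, the kinases, ligands with a count and up to 12 others by p, a few given only by fold change, and some genes of the list are not reported here.

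All genes were fitted with edgeR 4.0.16 (R 4.3.3, TMM, filterByExpr, robust quasi-likelihood, genotype only) and Benjamini-Hochberg adjustment over 15543 genes. Intervals are 95% intervals of the log2 fold change. The depth of 19595024 to 36419553 counts sets the counting error. Each p-value sets the difference between genotypes against the spread between mice of the same genotype. DESeq2 1.42.0, limma 3.58.1 (voom), other scaling, other filters, a replicate block, a Y-linked term and leaving libraries out were tried as alternatives.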

Additional observations from a re-analysis of the deposited data

How the results depend on the processing

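*Trim30a* passed in 18 of 19 alternatives, *Samd9l* in 17, *Ifit3* in 9 and *Isg15* in 8, and each kept its direction in all 19. The members passing higher and lower numbered 2 and 6 with DESeq2 and 0 and 2 with limma-voom, and 0 were higher without a filter on low counts. With more than a 2-fold change, the members higher and lower numbered 0 and 1 with limma-voom, and 0 were higher without the filter. With both WT 1 and WT 3 left out, 0 were higher and 1 lower, with or without the 2-fold rule, and 2504 of 15724 genes passed. With a Y-linked term 0 members and 0 of 15543 genes passed, while 2 members and 3382 genes had an unadjusted p below 0.05 (DESeq2 was not run with this term). That fit sets 1 Zfp36ΔARE mouse against WT. Leaving out 1 library gave 0 to 2 members higher and 2 to 5 lower, and 0 to 2 higher and 1 to 3 lower by over 2-fold. Over all tested genes the same-numbered libraries did not deviate together (correlations from -0.177 to 0.085). Such correlations cannot decide whether the numbers pair the mice for a smaller set of genes, such as the members. A fit with the replicate block gave 3 members (*Isg15*, *Samd9l*, *Trim30a*), 1 of them lower by over 2-fold, and 2740 genes.

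Genes near 0 changed sign. *Irf1* was at 0.0313 with limma-voom and 0.00602 with the replicate block. With the Y-linked term *Psmb8* was at 0.0429, *Gbp2* at 0.258, *Irgm1* at 0.193, *Psmb9* at 0.154 and *Irf1* at 0.201. With WT 1 and WT 3 left out *Gbp2* was at 0.261, *Irgm1* at 0.248, *Psmb9* at 0.111 and *Irf1* at 0.24. Leaving out 1 library gave ranges of -0.234 to 0.11 for *Gbp2*, -0.203 to 0.099 for *Irgm1*, -0.139 to 0.0634 for *Psmb9*, -0.128 to 0.153 for *Irf1* and -0.0847 to 0.365 for *Oasl2*. The list medians also changed sign, from -0.337 to 0.106 for the type I style genes and from -0.227 to 0.133 for the interferon gamma style genes. The medians stayed within 1 SD of the list level. That SD is the spread between mice of the same genotype and does not measure the error of a median fold change. The cause of these shifts was not tested. Depth limits the ligands, most of which had no count.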
